A study of Mus musculus with 3 samples.

Results

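Acute-phase proteins and secreted antimicrobial proteins make up an early layer of innate defence. The 10 genes described here are the serum amyloid A genes Saa3, Saa1 and Saa2, the lipocalin gene Lcn2, the haptoglobin gene Hp, the protease inhibitor gene Slpi, the lysozyme genes Lyz1 and Lyz2, and the formyl peptide receptor genes Fpr1 and Fpr2. They are listed by symbol, and all 10 were found among the 55536 annotated genes of the tables. The list was selected on measured values of the same libraries, their TPM and expected counts, so levels and spread between libraries are given as a description and support no claim about the group.

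The cells were macrophages grown from bone marrow of C57BL/6J mice. They were exposed for 12 h to 100 ng/ml Lipid A, the endotoxin moiety sensed by Toll-like receptor 4, kept for 12 h after its removal, and exposed to 100 ng/ml Lipid A once more for 10 min. Total RNA of the cytosolic fraction was sequenced after ribosomal RNA depletion, and all 3 libraries belong to this single group. The labels number them as biological replicates 1, 2 and 3 but give 1 donor identifier for all, and sex and age of the mice are not given in the labels. Whether separate cultures or animals gave the libraries is not stated, so p-values below measure only the spread between these libraries, which may be technical. No unstimulated, singly stimulated or nuclear library was analysed here, and the values are levels in restimulated cells, not responses.

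Serum amyloid A proteins are apolipoproteins of high-density lipoprotein. In mice Saa1 and Saa2 are made mainly by the liver during the acute phase, whereas Saa3 is known from macrophages, adipocytes and epithelia. Lipocalin 2 withholds bacterial iron carriers, haptoglobin binds free haemoglobin, lysozymes cleave the peptidoglycan of bacterial walls, and Slpi inhibits neutrophil serine proteases. Fpr1 and Fpr2 encode G-protein-coupled receptors that draw phagocytes towards formylated bacterial peptides, and in humans FPR2 is also a receptor for serum amyloid A.

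The libraries held 32108408, 53165872 and 57117456 expected counts in replicates 1, 2 and 3. Of 10 macrophage markers 9 reached 10 TPM, a level corrected for transcript length and library size, in every library, and Cx3cr1 stood at 0.11 TPM. Of 13 neutrophil and precursor markers 4 reached 1 TPM in every library, beside 41.4% of nuclear-encoded protein-coding genes. All 13 summed to 60.6, 38.2 and 44.2 TPM in replicates 1, 2 and 3. Csf3r, which macrophages also express, made 49.8, 27.5 and 30.3 TPM of it, while Ly6g and Retnlg had 0 counts. A count of 0 leaves room for at most 0.161 and 0.184 TPM of these (here and below, 3 counts in the library where they weigh most). Of 6 hepatocyte markers 5, Alb among them, had 0 counts. The epithelial, lymphocyte and fibroblast lists each summed to at most 0.15 TPM in any library. Replicate 1 stood apart in RNAs known to stay in the nucleus, with Malat1 at 1333 TPM in replicate 1 and 118 and 152 TPM in replicates 2 and 3. Neat1 stood at 66.0, 13.9 and 17.6 TPM, and Xist, the RNA of the inactive X chromosome of female cells, at 32.6, 0.42 and 0.35 TPM in replicates 1, 2 and 3. The gap was thus wider for Xist than for Malat1 or Neat1. Of the Y chromosome genes Ddx3y, Eif2s3y, Kdm5d and Uty, 3 had 0 counts in every library and Kdm5d had 1 count in replicate 2, so that RNA of male cells was at or near 0 in each library. Whether the libraries came from the same animals was not tested. Of all TPM, 34.3%, 27.8% and 27.8% fell on nuclear-encoded protein-coding genes in replicates 1, 2 and 3, so that 1 TPM here is a larger part of protein-coding RNA than where such genes fill most of the TPM.

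Saa3 and Lyz2 carried nearly all of the signal. Together they made 99.1%, 99.4% and 99.4% of the TPM summed over the 10 genes in replicates 1, 2 and 3. The other 8 genes summed to 92.5, 29.4 and 46.9 TPM. Lcn2, Fpr2 and Fpr1 formed a middle tier, Hp, Lyz1 and Slpi lay near 1 TPM, and Saa1 and Saa2 lay below it. At 1 TPM or more in every library stood 5 of the 10 genes, namely Saa3, Lyz2, Lcn2, Fpr2 and Fpr1, against 17.3% of all annotated genes and 41.4% of the 22015 nuclear-encoded protein-coding genes. With TPM rescaled to nuclear-encoded protein-coding genes alone, Hp, Lyz1 and Slpi also passed, which gave 8 of 10. The share of all genes on that scale was not computed, and the percentages above do not apply to it. In these bulk values, fewer cells expressing a gene and less RNA per cell cannot be told apart.

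**Figure D1:**
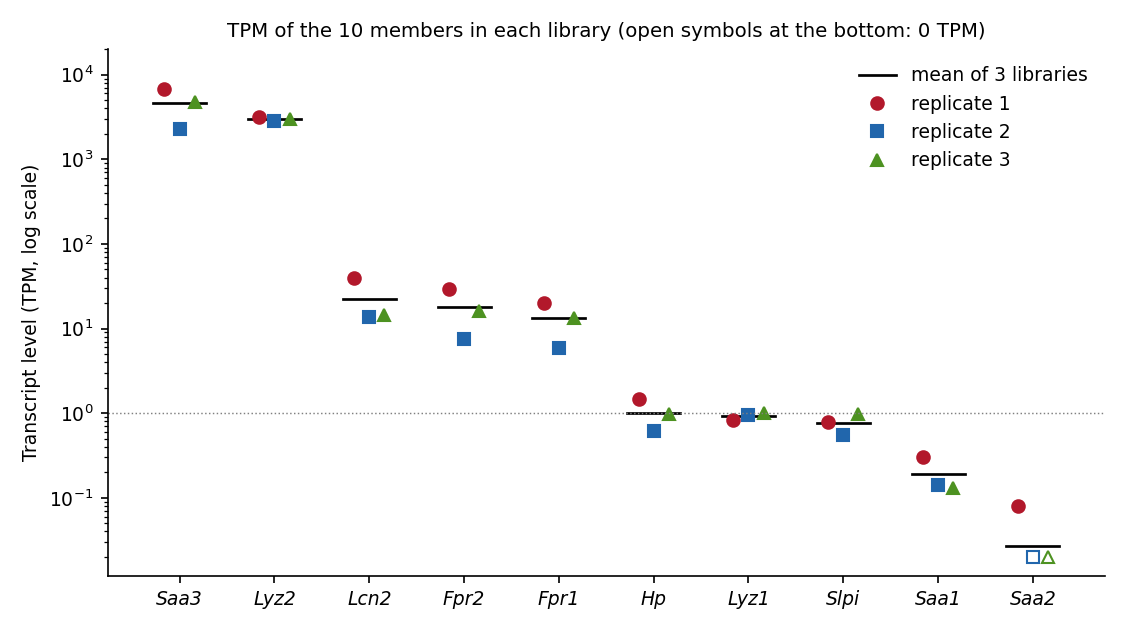
TPM of the 10 genes on a log axis, with 1 symbol for each library and a line at the mean of the 3 libraries. The dotted line marks 1 TPM; the lowest Lyz2 library lies 71.6-fold above the highest Lcn2 library, and Saa2 has 0 TPM in replicates 2 and 3 (open symbols).

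Saa3 (ENSMUSG00000040026.8, chr7:46711998-46715700 of mm10, minus strand) was the highest of the 10 genes by mean TPM. It stood at 6763, 2297 and 4805 TPM in replicates 1, 2 and 3, a mean of 4622 ± 2239 TPM (SD, n = 3). Replicate 1 was the highest library and replicate 2 the lowest, 2.94-fold apart in TPM. This mean ranked 4 among nuclear-encoded protein-coding genes, and Saa3 took 1.97%, 0.827% and 1.73% of their TPM in replicates 1, 2 and 3. It rested on 98352, 71902 and 154942 expected counts, so counting error was small beside the spread: the exact 95% Poisson interval of replicate 2, for example, was 2281 to 2314 TPM. Transcript Saa3-201 held 99.98%, 99.96% and 99.99% of the gene's TPM, although Saa3 has 3 annotated transcripts.

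Its neighbours in the same cluster on chromosome 7 were nearly silent. Saa1 (ENSMUSG00000074115.5, chr7:46740497-46742980, minus strand), 24796 bases from Saa3, had 6, 5 and 5 expected counts in replicates 1, 2 and 3. That made 0.3, 0.14 and 0.13 TPM, a mean of 0.19 ± 0.0954 TPM (SD, n = 3). The exact 95% Poisson intervals of these counts, 0.110 to 0.653, 0.0455 to 0.327 and 0.0422 to 0.303 TPM, overlapped. In the chi-square test described below, run over every gene with at least 1 count, no difference between libraries was detected (adjusted chi-square p = 0.481). With so few counts this test could miss a real difference. Saa2 (ENSMUSG00000057465.5, chr7:46751790-46754313, plus strand) had 1 expected count in replicate 1 and 0 in the others. It was at 0.08 TPM in replicate 1, and the 0 counts allow up to 0.0385 and 0.0357 TPM in replicates 2 and 3 (3 counts, counting error only). Per 100000 TPM of Saa3, Saa1 had 4.44, 6.09 and 2.71 TPM, a mean of 4.41 ± 1.69 (SD, n = 3). Saa4 and the pseudogene Saa-ps, which lie between Saa3 and Saa1, had 0 counts in every library, leaving room for at most 0.0351 and 0.701 TPM. The genes that flank the cluster were expressed, with Saal1 at 1.06, 0.93 and 0.84 TPM and Hps5 at 10.2, 6.42 and 7.53 TPM in replicates 1, 2 and 3.

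The 3 coding sequences are alike in part, so that reads can be shared between copies, and their starts are printed for that reason. Each open reading frame has 366 bases without the stop codon. Saa1 and Saa2 were identical at 348 of 366 positions (95.1%), Saa1 and Saa3 at 75.9% and Saa2 and Saa3 at 74.9% of aligned positions. Of all runs of 31 bases in the Saa1 transcript, 4.84% also occur in Saa3, and no run of 100 bases does. The lines below give the first 90 coding bases from the GENCODE M21 transcripts, 5′ to 3′, with capitals at the 45 positions where the 3 sequences are not all the same. Saa1 and Saa2 carry nearly the same capitals, and those of Saa3 stand apart.
Saa3 coding start: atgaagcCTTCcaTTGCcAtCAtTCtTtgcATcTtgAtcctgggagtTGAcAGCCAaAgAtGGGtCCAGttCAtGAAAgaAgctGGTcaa
Saa1 coding start: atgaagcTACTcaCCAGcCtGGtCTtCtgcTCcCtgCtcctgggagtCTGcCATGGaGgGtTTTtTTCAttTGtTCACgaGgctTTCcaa
Saa2 coding start: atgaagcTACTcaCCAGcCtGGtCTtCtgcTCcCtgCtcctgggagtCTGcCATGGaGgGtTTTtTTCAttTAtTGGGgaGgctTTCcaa

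The promoters of Saa3 and Saa1 are shown because these genes of 1 cluster lay near the opposite ends of the range. The windows run from 250 bases before to 50 bases after the annotated start, from RefSeq on GRCm38.p6, on the gene's own strand: chr7:46715627-46715926 (minus) for Saa3 and chr7:46742931-46743230 (minus) for Saa1. Capitals mark any match, on either strand, to 6 motifs whose letters were searched, with N for any base. They were GGGNNNNNCC (NF-kB-like, in 50.8% of all 32851 windows of the table), TTNNGCAA (C/EBP-like, 10.8%), TATAAA (13.6%), GAGGAA (PU.1-like, 28.3%), TGANTCA (AP-1-like, 7.81%) and GAAANNGAAA (ISRE-like, 3.44%).
Saa3 promoter window: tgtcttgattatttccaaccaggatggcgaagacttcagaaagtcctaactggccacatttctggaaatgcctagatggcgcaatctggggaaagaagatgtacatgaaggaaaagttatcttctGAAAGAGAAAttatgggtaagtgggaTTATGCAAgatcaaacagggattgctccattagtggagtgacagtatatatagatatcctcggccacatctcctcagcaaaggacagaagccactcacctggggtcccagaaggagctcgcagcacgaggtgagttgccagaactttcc
Saa1 promoter window: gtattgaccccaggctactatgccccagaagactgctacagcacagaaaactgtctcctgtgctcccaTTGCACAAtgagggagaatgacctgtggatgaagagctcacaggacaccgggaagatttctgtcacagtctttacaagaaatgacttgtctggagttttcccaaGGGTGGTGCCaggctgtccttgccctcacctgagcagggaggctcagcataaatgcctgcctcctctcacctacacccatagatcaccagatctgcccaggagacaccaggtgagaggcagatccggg
The Saa3 window held a C/EBP-like match, TTATGCAA, at position -99 from the start and an ISRE-like match, GAAAGAGAAA, at position -125. The Saa1 window held a C/EBP-like match on the other strand, TTGCACAA, and an NF-kB-like match, GGGTGGTGCC, and the Saa2 window held the same pair of matches. The Saa1 and Saa3 windows were identical at 50.9% of aligned positions, against 95.3% between Saa1 and Saa2. Matches of these letters describe the sequence and do not show binding.

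Lcn2 (ENSMUSG00000026822.14, chr2:32384633-32388252, minus strand) led the middle tier. It stood at 39.2, 13.7 and 14.4 TPM in replicates 1, 2 and 3, a mean of 22.4 ± 14.5 TPM (SD, n = 3). Replicate 1 alone was high, and the other libraries lay close together. Without replicate 1 the mean of Lcn2 was 14.1 TPM. Saa3 did not share this pattern: its TPM was 173, 168 and 333 times that of Lcn2 in replicates 1, 2 and 3. Lcn2 rested on 1217, 892 and 1007 expected counts and ranked 2112 of 22015 nuclear-encoded protein-coding genes. Of its 6 annotated transcripts Lcn2-201 held 98.6%, 98.6% and 97.7% of the TPM. The window at chr2:32387690-32387989 (minus strand) held an NF-kB-like, a C/EBP-like and a PU.1-like match, all on the opposite strand and marked in capitals as above.
Lcn2 promoter window: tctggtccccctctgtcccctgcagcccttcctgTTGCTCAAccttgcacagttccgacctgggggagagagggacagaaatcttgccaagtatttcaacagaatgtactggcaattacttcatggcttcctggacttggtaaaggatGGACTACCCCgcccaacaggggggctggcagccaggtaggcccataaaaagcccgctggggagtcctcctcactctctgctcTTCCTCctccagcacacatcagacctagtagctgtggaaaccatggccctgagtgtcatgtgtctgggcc

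Hp (ENSMUSG00000031722.10, chr8:109575128-109579172, minus strand) lay near 1 TPM. It had 1.45, 0.61 and 0.97 TPM in replicates 1, 2 and 3, a mean of 1.01 ± 0.421 TPM (SD, n = 3), from 74, 64 and 111 expected counts. Replicate 1 was again highest and replicate 2 lowest, but the exact 95% Poisson intervals of replicates 1 and 3, 1.14 to 1.82 and 0.798 to 1.17 TPM, overlapped. All counts of Hp were assigned to Hp-201, the coding transcript of its 3. Hp lay above Lyz1 in replicate 1 and below it in replicates 2 and 3, where their Poisson intervals overlapped. The TPM of a second quantifier put Hp above Lyz1 in replicates 1 and 3, so their order is not settled.

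Lyz2 (ENSMUSG00000069516.8, chr10:117277331-117282321, minus strand), the lysozyme gene of macrophages, differed least between libraries of the 10 genes in these TPM. It stood at 3196, 2804 and 2968 TPM in replicates 1, 2 and 3, a mean of 2989 ± 197 TPM (SD, n = 3), and ranked 9 among nuclear-encoded protein-coding genes. The libraries lay within 1.14-fold of each other. Lyz2 had 158619, 287322 and 330865 expected counts, more than Saa3 in every library, whereas per length Saa3 was above Lyz2 in replicates 1 and 3 and below it in replicate 2. The ratio of Saa3 to Lyz2 TPM was 2.12, 0.819 and 1.62 in replicates 1, 2 and 3, so the order of the top pair was not the same in all libraries.

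Lyz1 (ENSMUSG00000069515.6, chr10:117287797-117292868, minus strand), known as the lysozyme of Paneth cells of the gut, lies 5475 bases from Lyz2. It had 0.83, 0.95 and 1.01 TPM in replicates 1, 2 and 3, a mean of 0.93 ± 0.0917 TPM (SD, n = 3). The libraries were close, and the Poisson intervals of Lyz1 overlapped between all of them. Per 100000 TPM of Lyz2 there were 26.0, 33.9 and 34.0 TPM of Lyz1, a mean of 31.3 ± 4.61 (SD, n = 3). Put the other way, Lyz2 was 3850-, 2952- and 2939-fold above Lyz1 in replicates 1, 2 and 3. Lyz1 rested on 39.01, 93.04 and 107.03 expected counts, which lie close to whole numbers. The second quantifier gave it 43.1, 83.1 and 94.1 estimated counts in replicates 1, 2 and 3, so the level of Lyz1 is uncertain. Whether reads of Lyz2 are part of the Lyz1 value was not tested.

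The sequences show how close these copies are. Both coding sequences have 444 bases without the stop codon, and 422 of them are the same. Of all runs of 31 bases in the Lyz1 transcript 34.2% also occur in Lyz2, and 2.06% of the runs of 100 bases do. The first 90 coding bases are given 5′ to 3′ from the GENCODE M21 transcripts, with capitals at the 7 positions that differ.
Lyz2 coding start: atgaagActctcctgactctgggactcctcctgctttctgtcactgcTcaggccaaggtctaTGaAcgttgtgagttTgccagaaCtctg
Lyz1 coding start: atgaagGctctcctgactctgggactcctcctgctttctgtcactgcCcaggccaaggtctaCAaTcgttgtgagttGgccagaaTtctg
The promoter windows, chr10:117282223-117282522 and chr10:117292819-117293118 (both minus strand, RefSeq, GRCm38.p6), were identical at 82.5% of aligned positions. They are printed because the levels of the genes lie so far apart while much of the sequence around their starts is shared. Capitals again mark matches to the 6 motifs: the Lyz1 window held 1 C/EBP-like match, TTAAGCAA, at position -209 from the start, and the Lyz2 window held none.
Lyz2 promoter window: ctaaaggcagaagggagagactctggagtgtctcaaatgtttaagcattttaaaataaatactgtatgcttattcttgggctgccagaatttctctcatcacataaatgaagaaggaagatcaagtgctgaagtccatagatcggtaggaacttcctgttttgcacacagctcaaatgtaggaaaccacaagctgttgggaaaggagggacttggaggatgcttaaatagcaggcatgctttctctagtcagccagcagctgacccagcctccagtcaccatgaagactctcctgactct
Lyz1 promoter window: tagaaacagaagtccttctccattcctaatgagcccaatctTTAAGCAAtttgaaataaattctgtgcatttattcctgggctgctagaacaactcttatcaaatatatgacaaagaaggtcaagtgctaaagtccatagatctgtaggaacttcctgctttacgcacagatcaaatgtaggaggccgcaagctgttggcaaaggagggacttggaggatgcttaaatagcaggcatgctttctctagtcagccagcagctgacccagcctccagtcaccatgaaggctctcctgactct

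Slpi (ENSMUSG00000017002.14, chr2:164354070-164389095, minus strand) stood at 0.78, 0.55 and 0.97 TPM in replicates 1, 2 and 3, a mean of 0.767 ± 0.210 TPM (SD, n = 3). It rested on 23, 33 and 47 expected counts, and the Poisson intervals of all libraries overlapped. Its transcript shares were not alike in the 3 libraries: Slpi-201 held 100%, 96.98% and 56.98% of the gene's TPM in replicates 1, 2 and 3. The remainder in replicate 3 was Slpi-202, a shorter transcript of 488 bases given 10.61 expected counts there. The second quantifier gave Slpi-201 100%, 93.1% and 64.0%. With so few reads the split is a weak measurement. The microRNA gene Mir7678 lies within Slpi and had 0 counts.

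The receptor genes Fpr1 and Fpr2 moved nearly in step. Fpr1 (ENSMUSG00000045551.7, chr17:17876471-17883940, minus strand) stood at 20.3, 5.84 and 13.3 TPM in replicates 1, 2 and 3, a mean of 13.1 ± 7.23 TPM (SD, n = 3). Fpr2 (ENSMUSG00000052270.7, chr17:17887824-17893952, plus strand), which lies 3883 bases away, stood at 29.6, 7.59 and 16.1 TPM, a mean of 17.8 ± 11.1 TPM (SD, n = 3). Both were highest in replicate 1 and lowest in replicate 2. Their libraries were 3.48-fold apart for Fpr1 and 3.90-fold for Fpr2, but the ratio of Fpr1 to Fpr2 TPM was 0.686, 0.769 and 0.823, 1.2-fold apart. Fpr2 was thus above Fpr1 in each library, although their ranges overlapped. In expected counts, with no correction for length, the ratio was 1.02, 1.11 and 1.19. The estimated counts of the second quantifier gave 0.882, 0.983 and 1.06, so the order by counts was not the same in both tables. Ratios of Fpr2 to Saa3 TPM were 1.32-fold apart between libraries, so a fairly steady ratio was not particular to the receptor pair.

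The reads of Fpr2 were split between its 2 annotated transcripts. Fpr2-202 held 64.3%, 59.7% and 56.9% of the gene's TPM in replicates 1, 2 and 3, and Fpr2-201 the rest. The second quantifier gave Fpr2-202 71.0%, 67.2% and 62.4%. In the annotation Fpr2-201 has 2 exons and an open reading frame of 1053 bases. Fpr2-202 has 3 exons, because 413 bases are spliced out of the last exon of Fpr2-201, and its annotated open reading frame is 144 bases. The annotated ends differ too: the first exon has 76 bases in Fpr2-202 and 12 in Fpr2-201, and Fpr2-202 runs on for 99 bases after the end of Fpr2-201. Of this pair, reads from those end stretches can come only from Fpr2-202, and how much of its share they make was not tested. Fpr3, annotated over the same stretch and strand as Fpr2, had 0 counts in every library, and reads of the shared stretch could be split between them in either way. The strand setting of the counting was among the details not given in the sources used here.

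**Figure D2:**
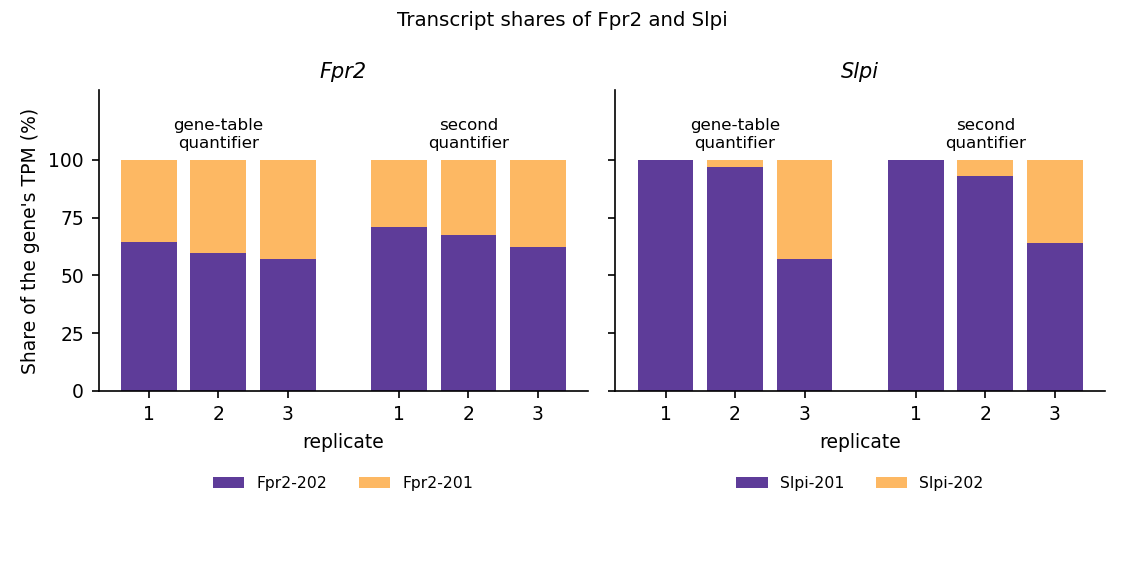
Share of each gene's TPM held by its transcripts (stacked bars, %) in replicates 1, 2 and 3, for Fpr2 and Slpi and for both quantifiers. Fpr2-202 holds 56.9% to 71.0% in every bar, and Slpi-201 is lowest in replicate 3, at 56.98% and 64.0%.

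Leading transcripts held at least 95% of the TPM in every library with counts for 8 of the 10 genes, with Fpr2 and Slpi the exceptions. Lyz1, Lyz2 and Fpr1 have only 1 annotated transcript and so pass by definition. Saa2 enters this count with a single read, which was assigned to Saa2-202. The same share over all genes was not computed, so nothing is read from this count.

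The spread between libraries was set against counting error alone. Expected counts were rounded and compared with a single rate by a chi-square test per gene, with TMM-scaled library sizes and Benjamini-Hochberg adjustment over the 12515 genes past edgeR's count filter. The filter kept 8 of the 10 genes and left out Saa1 and Saa2. Past the 0.05 threshold of the adjusted p were 6 of the 8, a share near the 71.5% of all tested genes. The exceptions were Lyz1 (adjusted chi-square p = 0.125) and Slpi (adjusted chi-square p = 0.487), both with few counts. Hp was the weakest of the 6 (adjusted chi-square p = 0.000289), and it was not past the threshold without replicate 2 (adjusted chi-square p = 0.239). Lcn2 was not past it without replicate 1 (adjusted chi-square p = 0.428), when replicates 2 and 3 were compared with each other.

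In size, the spread ran from nearly none to more than 3-fold. By counts scaled to library size (CPM, with TMM factors and a prior count of 2), the highest library over the lowest was 3.17 for Fpr2, 2.89 for Fpr1, 2.36 for Saa3, 2.35 for Lcn2 and 1.96 for Hp. It was 1.47 for Lyz1, 1.31 for Slpi and 1.13 for Lyz2. The median over all tested genes was 1.26 and their 95th percentile 2.64. At least 2-fold apart were 4 of the 8 tested genes, Fpr2, Fpr1, Saa3 and Lcn2, while 10.1% of all tested genes were. The count rests on particular libraries: without replicate 2 only Lcn2 was at least 2-fold apart (2.22-fold between replicates 1 and 3). Without replicate 1 it was Saa3, Fpr1 and Fpr2, at 2.00-, 2.30- and 2.14-fold between replicates 3 and 2, and Lcn2 was at 1.05-fold. The rule that picked the genes asked for their spread, so these counts are set beside the background and nothing is read from them.

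**Figure D3:**
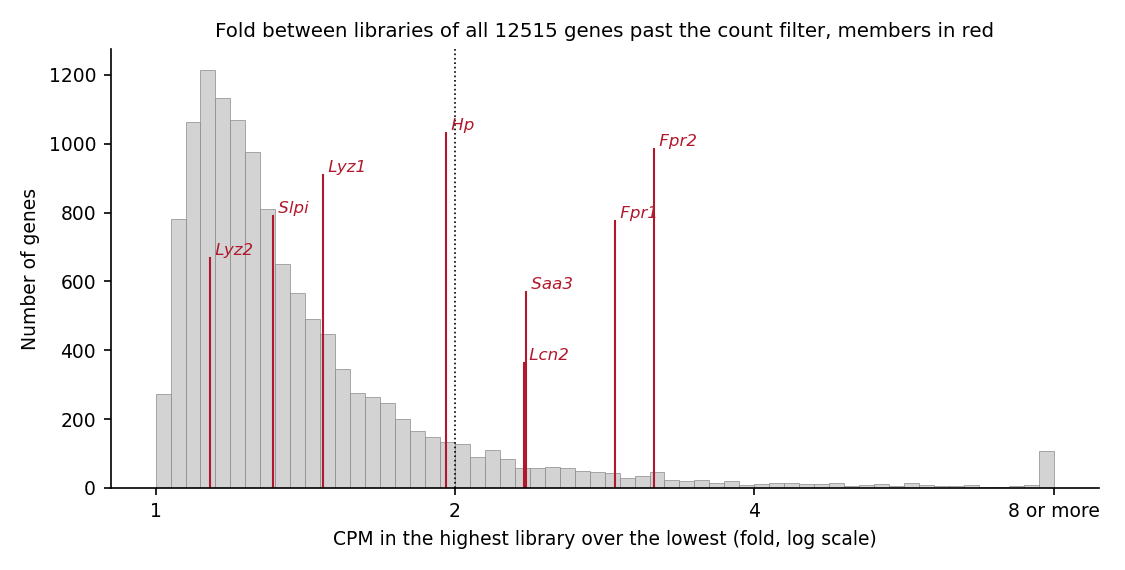
Number of genes (y axis) by the fold of CPM between the highest and the lowest library (x axis, log scale) for the 12515 genes past the count filter, with the 8 genes of the list that passed as red lines whose height carries no value. The dotted line marks 2-fold; Lyz2 sits at 1.13 and Fpr2 at 3.17.

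The direction of the spread split the genes into 3 patterns. On log2 CPM, 5 of the 8 tested genes, Saa3, Fpr1, Fpr2, Lcn2 and Hp, were highest in replicate 1 and lowest in replicate 2, as were 24.2% of all tested genes. Lyz1 and Lyz2 were lowest in replicate 1, as were 42.3% of all tested genes. Slpi was highest in replicate 3 and lowest in replicate 2. For Slpi and Lyz1 no difference beyond counting error was detected, so their order of libraries may be counting error. In replicate 1, 6 of the 8 lay above the mean of replicates 2 and 3, as did 48.3% of all tested genes. Relative to that mean, replicate 1 differed by 1.19 on the log2 scale for Lcn2, 1.11 for Fpr2, 0.93 for Fpr1, 0.73 for Saa3 and 0.63 for Hp. It differed by 0.05 for Slpi, -0.13 for Lyz2 and -0.51 for Lyz1, against a median of -0.01 over all tested genes. The sign of Lyz2 turned with the scale: on log2(TPM + 1) replicate 1 was 0.15 above the other libraries.

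Lcn2 differed from the other high-in-replicate-1 genes in replicate 3. There, Saa3, Fpr1 and Fpr2 lay nearer to replicate 1, with log2 CPM of 11.62 and 11.40 for Saa3, 5.02 and 4.70 for Fpr1, and 5.002 and 4.45 for Fpr2 in replicates 1 and 3. In replicate 2 these genes stood at 10.38, 3.49 and 3.34. Lcn2 stood at 5.29, 4.05 and 4.13 in replicates 1, 2 and 3, so that replicate 3 lay beside replicate 2. The depth of replicate 1 was the lowest of the 3 libraries and its nuclear RNAs the highest, and the part of either in these differences was not tested. In TPM, the summed macrophage markers moved less, at 2239, 1727 and 2020 in replicates 1, 2 and 3. These sums are not corrected for the share of nuclear-encoded protein-coding genes, which was 34.3%, 27.8% and 27.8% of TPM. On log2 CPM, 3 of the 10 markers (24.2% of all tested genes) were highest in replicate 1 and lowest in replicate 2. The 3 were Fcgr1 (349, 200 and 221 TPM), Itgam (60.3, 35.7 and 38.1 TPM) and Mertk (50.6, 33.4 and 39.35 TPM). In CPM, 0 of the 10 were at least 2-fold apart, beside 10.1% of all tested genes. The 13 neutrophil and precursor markers summed to 60.6, 38.2 and 44.2 TPM. Of the 5 past the filter only Csf3r, which macrophages also express, was highest in replicate 1 and lowest in replicate 2. It stood at 49.8, 27.5 and 30.3 TPM, high in replicate 1 alone as Lcn2 was. Of the other neutrophil and precursor markers, S100a9 was at 4.75, 4.75 and 6.85 TPM and S100a8 at 2.64, 2.29 and 4.18 TPM. Mmp8 was at 2.42, 3 and 2.02 TPM, and Mpo, Elane, Ly6g and Retnlg were at or near 0, with at most 0.05 TPM in any library. What part cells of either type had in the pattern of Lcn2 was not tested.

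**Figure D4:**
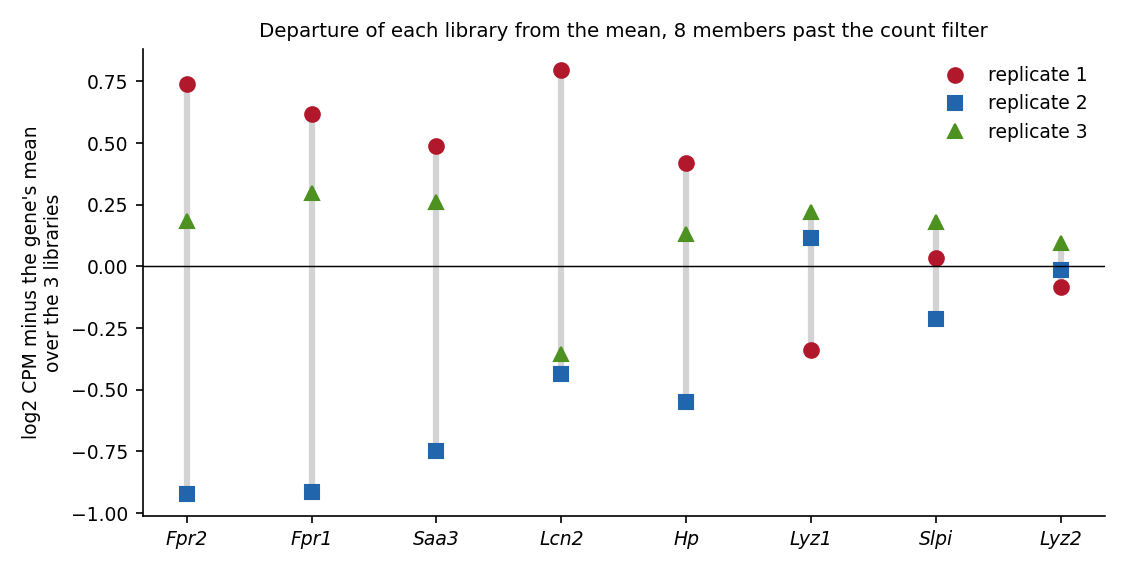
Log2 CPM of each library minus the gene's mean over the 3 libraries (y axis) for the 8 genes past the count filter, with a grey bar from the lowest to the highest library. Fpr2, Fpr1, Saa3, Lcn2 and Hp have replicate 1 on top and replicate 2 at the bottom, while Lyz1 and Lyz2 have replicate 1 at the bottom.

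Other acute-phase genes were likewise partly expressed and partly silent. Of 23 such genes 6 reached 1 TPM in every library, beside 41.4% of nuclear-encoded protein-coding genes. In all libraries 11 of the 23 had 0 counts, among them the liver genes Crp, Apcs and the fibrinogen genes Fga, Fgb and Fgg. The complement genes C3 and Cfb led at 94.6 ± 24.1 and 90.99 ± 44.6 TPM, followed by the ceruloplasmin gene Cp at 30.6 ± 14.8 TPM (SD, n = 3). The lowest detected, Serpina3n, had 1 count in replicate 1. All of these lay far below Saa3, with Cfb at 135, 45.7 and 92.4 TPM in replicates 1, 2 and 3. Cfb, like Saa3, was highest in replicate 1 and lowest in replicate 2. So were 5 of the 8 genes of this list past the filter, and 24.2% of all tested genes. The other 3, the metallothionein genes Mt1 and Mt2 and Lbp, whose product binds lipopolysaccharide, were lowest in replicate 1, and Mt1 had 18.4, 39.5 and 29.2 TPM in replicates 1, 2 and 3. In TMM-scaled counts 6 of the 8 were at least 2-fold apart, beside 10.1% of all tested genes. The median of the list was 0.00333 TPM, against 0 TPM for all annotated genes and 0.16 TPM for nuclear-encoded protein-coding genes.

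Other antimicrobial genes stood below Lyz2 and Saa3 as well. Mpeg1, whose product perforin-2 makes pores in engulfed bacteria, led them at 799 ± 90.1 TPM (SD, n = 3). Wfdc17, a gene of the same protein domain family as Slpi, stood at 381 ± 72.9 TPM, and Acod1, whose enzyme makes itaconate, at 329.8 ± 155 TPM. Of 20 genes 8 reached 1 TPM in every library, beside 41.4% of nuclear-encoded protein-coding genes, and 9 passed the filter. In TMM-scaled counts 0 were at least 2-fold apart, beside 10.1% of all tested genes. In TPM, Acod1 was farther apart, with 509, 231 and 250 TPM in replicates 1, 2 and 3. The median of the list was 0.158 TPM. Bpi and Ptx3 were the lowest detected, with 1 count each in a single library. Slpi at 0.767 TPM thus lay below Wfdc17 in every library, where Wfdc17 had 457, 312 and 374 TPM in replicates 1, 2 and 3.

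The other 5 formyl peptide receptor genes, Fpr3, Fpr-rs3, Fpr-rs4, Fpr-rs6 and Fpr-rs7, had 0 counts in every library. The loosest limit among them was that of Fpr-rs4, at 0.0889 TPM. Of 13 genes for partners and receptors of the listed proteins, 8 reached 1 TPM in every library (41.4% of nuclear-encoded protein-coding genes). The progranulin gene Grn, whose product Slpi is known to bind, stood at 899.6 ± 107 TPM, Hmox1, which breaks down haem, at 100.3 ± 18.9, and Anxa1, whose product is a ligand of formyl peptide receptors, at 84.2 ± 10.4 TPM (SD, n = 3). The lowest detected was the lipocalin receptor gene Slc22a17 at 0.0133 ± 0.0115 TPM. Chosen after their values were seen, the haptoglobin-haemoglobin receptor gene Cd163 stood at 0.0533 ± 0.0115 TPM and the lipocalin receptor gene Lrp2 had 0 counts, with a limit of 0.0121 TPM.

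Of 17 genes for upstream signals and transcription factors of the acute-phase response, 13 reached 1 TPM in every library (41.4% of nuclear-encoded protein-coding genes). Tnf was highest at 61.7 ± 25.4 TPM, followed by Stat3 at 29.3 ± 9.52 and Nfkb1 at 24.8 ± 5.16 TPM (SD, n = 3). Of the 14 genes past the filter 6 were highest in replicate 1 and lowest in replicate 2 (24.2% of all tested genes). At least 2-fold apart were 3 of the 14 (10.1% of all tested genes). Tnf stood at 90.9, 49.6 and 44.7 TPM in replicates 1, 2 and 3, high in replicate 1 alone, as Lcn2 was.

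**Figure D5:**
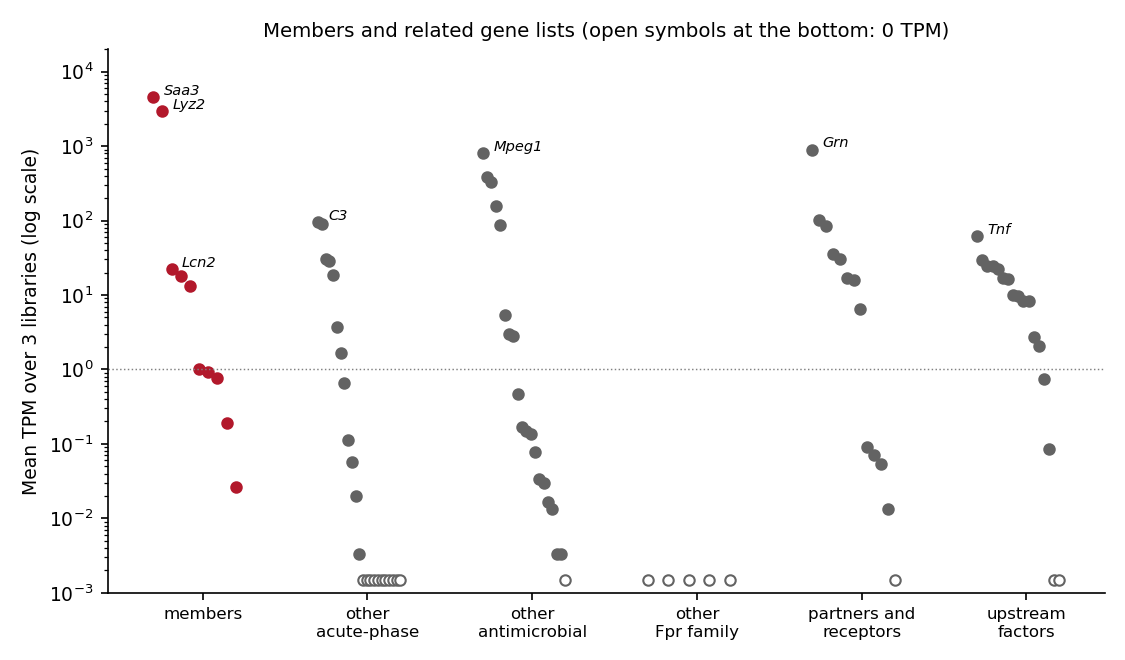
Mean TPM over the 3 libraries (y axis, log scale) of the 10 genes of the list (red) and of 5 lists of related genes (grey), each sorted from high to low, with genes at 0 TPM as open symbols. Saa3 and Lyz2 lie above every gene of the related lists, the highest of which is Grn at 899.6 TPM, and all 5 other formyl peptide receptor genes are at 0.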

How the data were processed

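RNA of the cytosolic fraction was measured in 3 libraries of 1 group, numbered by the labels. Expected counts of genes and transcripts were deposited by the authors. Notes beside the files say that these tables derive from reads aligned to the transcriptome, with mm10 and GENCODE M21. Column names are those RSEM writes, and the values need not be whole. The same deposited tables give TPM, scaled over all listed features, and the percent of a gene's TPM held by each transcript. A further deposited transcript table with estimated counts and TPM has the column names kallisto writes and is called the second quantifier. Versions, filters and the strand setting were among the details not given in the sources used here.

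Entries that name no gene (spike-ins, tRNAs) took 0.435%, 0.134% and 0.0823% of the counts in replicates 1, 2 and 3 and stayed out of the tests. Levels are means ± SD of TPM over the libraries. For the spread, expected counts were rounded to whole numbers, filtered by edgeR's expression filter (minimum count 10), scaled by TMM (factors 0.979, 1.01 and 1.01) and compared with a single rate per gene by a chi-square test, adjusted by Benjamini-Hochberg over all 12515 genes left. The test was checked on simulated counts. The tools were edgeR 4.0.16, DESeq2 1.42.0 (size factors only), R 4.3.3, Python 3.11.15, numpy 2.4.6, pandas 2.3.3 and Biopython 1.88. Intervals and limits for 0 counts cover counting error only, since reads without molecular identifiers are not independent molecules. A limit for 0 counts is 3 counts.

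Promoter windows came from a RefSeq table (GRCm38.p6), in which 9 of the 10 genes matched by symbol, and coding sequences from the GENCODE M21 transcripts. All listed genes are named, and of each related list the 3 highest and the lowest detected gene by mean TPM, or every gene in lists of up to 6. A gene this rule names is not reported here. Genes named beyond that, such as the liver genes at 0 counts, were chosen after their values were seen. The genes and lists were chosen with earlier results of these data known. Alternatives were TPM of nuclear-encoded protein-coding genes, the second quantifier, other thresholds, normalizations, filters and prior counts, and leaving out each replicate.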

Additional observations from a re-analysis of the deposited data

How the results depend on the processing

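The number of the 10 genes at 1 TPM or more in every library was 5, and it became 8 with TPM rescaled to nuclear-encoded protein-coding genes, 8 with the second quantifier rescaled likewise (an alternative chosen after seeing the data) and 8 with a minimum of 10 expected counts. The shares of all genes under these alternatives were not computed. Leaving out each replicate gave 5 to 5. The number at least 2-fold apart was 4 and ranged from 1 to 4 when each replicate was left out, with 1 without replicate 2. The number beyond counting error was 6 and ranged from 5 to 6. The mean ratio of Fpr1 to Fpr2 was 0.760 in TPM, 0.654 with the second quantifier and 1.11 in expected counts, and ranged from 0.728 to 0.796 with a replicate left out. Lyz1 per 100000 of Lyz2 ranged from 29.9 to 33.95, Saa1 per 100000 of Saa3 from 3.57 to 5.26 and Saa2 per 100000 of Saa3 from 0 to 0.591. The number of genes with a leading transcript of at least 95% ranged from 7 to 9. Among values of single genes, 29 moved by more than the spread between libraries and 110 did not, most of those that moved being mean TPM under another scale. The second quantifier gave Saa3 2252 and Lyz2 1275 TPM, where nuclear-encoded protein-coding genes held 24.3%, 10.1% and 8.15% of its TPM in replicates 1, 2 and 3. Depth limits Saa1 and Saa2, with 6 counts or fewer a library, and the transcript split of Slpi. No paired analysis was possible because all libraries belong to 1 group.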
